A study of Mus musculus with 6 samples.

Results

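Nitric oxide and arginine metabolism was followed in LPS-stimulated N9 microglia through 7 genes, chosen by name out of the 54532 genes of the deposited count table: Nos2, Gch1, Gchfr, Ass1, Asl, Odc1 and Sat1. N9 cells are an immortalized line of mouse microglia, the resident macrophages of the brain. Lipopolysaccharide (LPS), from the bacterial outer membrane, is a standard stimulus of such cells. RNA was sequenced from 3 libraries of N9 cells stimulated for 6 h with LPS at a dose of 1 µg/ml, and from 3 libraries of untreated N9 cells, which serve as the control. Both groups are a single cell line grown in RPMI medium with serum, and the labels do not say whether replicates were separate cultures, so p-values measure the spread between these libraries, which may be technical.

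Inducible nitric oxide synthase, encoded by Nos2, converts arginine to nitric oxide and citrulline, and it is a classical product of activated macrophages and microglia. It needs tetrahydrobiopterin, whose synthesis begins with GTP cyclohydrolase (Gch1) and is restrained by the feedback regulator protein encoded by Gchfr. Citrulline can be returned to arginine by argininosuccinate synthase (Ass1) and argininosuccinate lyase (Asl). Arginine is also a source of ornithine, from which ornithine decarboxylase (Odc1) starts the polyamines that Sat1 marks for breakdown or export.

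All 7 genes passed the filter on low counts, Nos2 only through its LPS libraries. LPS-stimulated cells had more transcript of 5 of them (Nos2, Gch1, Ass1, Odc1 and Sat1) at an adjusted p under 0.05. None was lower. For Nos2, passing that filter left a rise as the only possible direction. Only Nos2 was also changed by more than 1.5 in log2 fold change (log2FC), which together with that adjusted p defines a DEG here. Gchfr and Asl did not pass the test. Of all 12296 genes tested, 18.7% were higher with LPS at that adjusted p, 15.7% were lower, 2.4% were DEG with higher expression and 0.252% were DEG with lower expression. The adjustment is that of Benjamini and Hochberg over all genes tested by edgeR's quasi-likelihood method. Levels in CPM are counts divided by TMM-adjusted library size, and levels in RPKM are also divided by the deposited gene length. In bulk RNA, more cells expressing a gene and more RNA per cell cannot be told apart.

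Total counts lay between 16363767 and 17956772 per library, and 3 counts corresponded to between 0.161 and 0.19 CPM. Of 15 macrophage and microglia markers, 12 had a mean of at least 10 counts, among them Csf1r, Cd68 and Trem2, whereas P2ry12 and Aif1 stayed under 10 counts in every library and Sall1 had a single count in all. Control replicates 2 and 3 held reads of hepatocyte genes. Without Ambp, which had between 74 and 124 counts in every library, 22 hepatocyte markers summed to 6, 368 and 595 counts in control replicates 1, 2 and 3 and to 9, 8 and 11 in the LPS libraries. Of the urea cycle genes of liver, Otc had 0, 3 and 3 counts in these controls and 3, 0 and 0 with LPS, and Cps1 had 0, 8 and 6 counts in the controls and 0, 1 and 2 with LPS. Ass1 and Asl are also abundant in liver, and these sums are therefore set beside the values of Ass1.

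The bases just upstream of members that rose are shown as sequence context, and their part in the rise was not tested. The RefSeq promoter table on GRCm38.p6 matched 5 of the 7 genes (Gch1, Gchfr, Ass1, Odc1 and Sat1), and the 4 among them that rose with LPS are printed from 5′ to 3′, cut to the bases before the earliest annotated start of the gene. Capitals mark matches, on either strand, to any of 10 motifs: the E box CACGTG, the cAMP response element TGACGTCA and its half-site TGACG, which it contains, the CCAAT box CCAAT, the GC box GGGCGG, the TATA box TATAAA, the AP-1 site TGANTCA, the GAS element TTCNNNGAA, the C/EBP site TTGCNNAA and the NF-kappa B consensus.
Gch1 promoter, chr14:47189414-47189663, minus strand: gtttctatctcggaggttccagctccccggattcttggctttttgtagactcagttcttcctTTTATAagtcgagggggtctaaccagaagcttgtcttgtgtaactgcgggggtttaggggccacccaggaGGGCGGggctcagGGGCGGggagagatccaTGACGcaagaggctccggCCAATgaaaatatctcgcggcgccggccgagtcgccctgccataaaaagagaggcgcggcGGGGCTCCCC
Odc1 promoter, chr12:17544623-17544793, plus strand: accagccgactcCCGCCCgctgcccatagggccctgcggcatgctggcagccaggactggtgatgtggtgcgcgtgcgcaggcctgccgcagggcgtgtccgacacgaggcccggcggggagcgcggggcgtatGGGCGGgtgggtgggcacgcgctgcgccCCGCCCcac
Sat1 promoter, chrX:155216450-155216699, minus strand: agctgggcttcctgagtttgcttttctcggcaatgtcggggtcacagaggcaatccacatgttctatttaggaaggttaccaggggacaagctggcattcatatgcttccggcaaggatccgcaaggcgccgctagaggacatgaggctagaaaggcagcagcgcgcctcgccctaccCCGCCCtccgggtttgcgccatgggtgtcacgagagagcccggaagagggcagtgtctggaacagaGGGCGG
Ass1 promoter, chr2:31470020-31470206, plus strand: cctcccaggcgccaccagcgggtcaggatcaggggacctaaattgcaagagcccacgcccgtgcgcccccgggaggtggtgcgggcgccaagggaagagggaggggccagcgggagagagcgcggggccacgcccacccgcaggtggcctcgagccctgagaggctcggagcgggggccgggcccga

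The stretch before Gch1 held 2 GC boxes, a half-site TGACG beginning 88 bases before the start, a CCAAT box at 70 bases, a TATA box on the other strand at 188 bases and, at 10 bases, a match to the NF-kappa B consensus. Of 32851 promoters in the table, 32.7% had a GC box in a window of 250 bases, 33.8% a CCAAT box, 17.8% the half-site, 12.4% the TATA box and 3.9% the NF-kappa B consensus. The 171 bases before Odc1 held 3 GC boxes, and the 250 bases before Sat1 held 2. Of all promoters, 19.6% had at least 1 GC box in the first 171 bases of their entries. The entries begin 250 bases before a start, so that shares for shorter windows leave out the bases next to it. None of the 10 motifs was found in the 187 bases before Ass1. Gchfr, whose transcript did not pass the test, had a GC box and a CCAAT box in 235 bases. In the first 235 bases of their entries, 30.6% and 32.6% of promoters had them. Each match is a description of letters and not of binding.

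The NO synthase itself changed from almost no reads to a clear signal. Nos2 (ENSMUSG00000020826), a protein-coding gene of 26 exons, lies on the plus strand of chromosome 11 of GRCm38 (mm10) from 78920787 to 78960254. Control replicates 1, 2 and 3 held 0, 2 and 2 Nos2 reads, and LPS replicates 1, 2 and 3 held 285, 385 and 312. All LPS libraries were far above all control libraries, which were at or under 3 counts. Set against 3 counts in each control library, Nos2 was at least 119.5-fold higher with LPS (edgeR adjusted p = 2.2e-11), at least 111.6-fold higher with total-count scaling and at least 109.7-fold higher without LPS replicate 2. Its mean with LPS was 20.2 ± 2.89 CPM (SD, n = 3). The coefficient of variation of 14.3% between the LPS libraries was wider than the 5.53% that counting alone gives at this depth.

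The 3 tested genes whose profile over the 6 libraries lay nearest to that of Nos2, by Euclidean distance of mean-centred log2 CPM, with a prior count of 2, were Cmpk2 at 0.41, Il1a at 0.79 and Ifit1 at 0.87. With 0 to 2 control counts, the profile of Nos2 is set in part by the prior count (its log2FC was 6.72 with a prior count of 2 and 7.94 with the lower default one), so these distances hold for that prior count alone and do not measure likeness in the controls. Cmpk2 encodes a mitochondrial nucleotide kinase known as an interferon-stimulated gene, Il1a a cytokine and Ifit1 an interferon-induced protein. Cmpk2 rose from 6.25 ± 1.51 to 653 ± 59 CPM (SD, n = 3), a log2FC of 6.70 (standard error 0.11, edgeR adjusted p = 2.7e-15). As Cmpk2 was chosen for its likeness to Nos2 in these libraries, its rise follows from the choice and is not separate evidence.

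**Figure D1:**
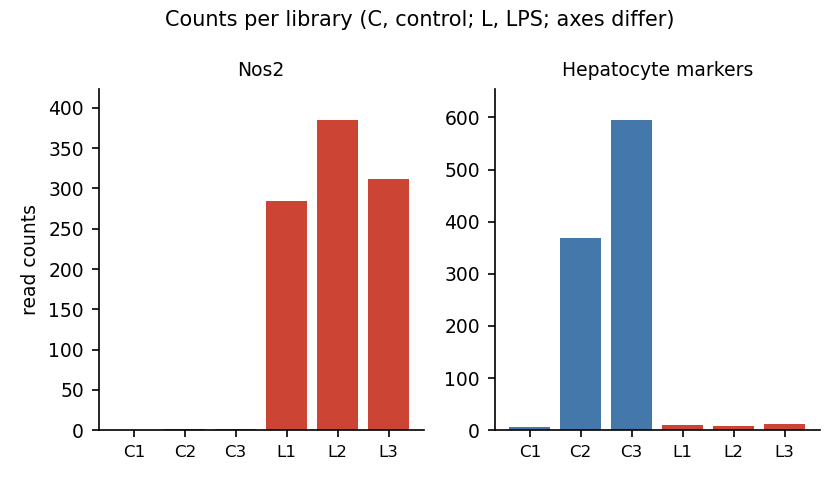
Read counts in each library (C, control; L, LPS) of Nos2 and the summed counts of 22 hepatocyte markers, 1 bar per library, with a separate count axis for each panel. Nos2 lies between 285 and 385 counts in the LPS libraries and at 0 to 2 in the controls, and the hepatocyte sum is high in control replicates 2 and 3 alone.

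Neither of the other NO synthases passed the test. Nos1, the neuronal form, gave 171, 193 and 219 control counts against 131, 134 and 179 with LPS, a log2FC of -0.26 (standard error 0.14, edgeR adjusted p = 0.168). Nos3, the endothelial form, gave 10, 22 and 23 against 15, 9 and 13. Per length, Nos1 was at 0.978 ± 0.0807 RPKM in the controls and 0.818 ± 0.138 RPKM with LPS (SD, n = 3), so that its level lay above that of Nos2 before LPS (0.0167 RPKM) and below it with LPS (4.57 ± 0.656 RPKM). Of 8 genes listed for NO synthases and their partners, 7 were tested, 0 rose and 1 fell, the NO synthase trafficking protein Nostrin at -0.32 (standard error 0.11, edgeR adjusted p = 0.0349), a call lost with DESeq2 (-0.33, adjusted p = 0.0618) and when control replicate 2 (-0.24), control replicate 3 (-0.31), LPS replicate 1 (-0.28) or LPS replicate 3 (-0.32) was left out. The calmodulin genes Calm2 and Calm3, whose product is a subunit of active NO synthase, had log2FC of -0.11 and -0.01, and neither passed the test.

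Among the cofactor members, Gch1 passed the test and Gchfr did not. Gch1 (ENSMUSG00000037580), the rate-limiting enzyme of tetrahydrobiopterin synthesis, lies on the minus strand of chromosome 14 from 47153895 to 47189413. It was at 42, 34.7 and 39.2 CPM in control replicates 1, 2 and 3 and at 77.4, 75.2 and 68.1 CPM in LPS replicates 1, 2 and 3. The groups did not overlap, and the lowest LPS library was well above the highest control. Its log2FC was 0.93 (standard error 0.07, edgeR adjusted p = 1.1e-07), a 1.9-fold rise. Both processed pseudogenes that overlap Gch1 had at most 1 count in any library.

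Gchfr (ENSMUSG00000046814), the regulator that inhibits GTP cyclohydrolase when tetrahydrobiopterin is plentiful, lies on chromosome 2 from 119167773 to 119172390. It was at 8.29, 7.71 and 10.2 CPM in the control libraries and at 11.2, 10.9 and 10.9 CPM with LPS. Control replicate 3 lay close to the LPS libraries and the other controls lay lower. The log2FC of 0.33 (standard error 0.13) did not pass the test (edgeR adjusted p = 0.0611), and without control replicate 3 it was 0.45 and passed (edgeR adjusted p = 0.0234). The LPS libraries of Gchfr varied by 1.48%, less than the 7.5% of counting alone, so their closeness is not a measure of precision.

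Within each library, the ratio of Gch1 to Gchfr per length was 0.521, 0.463 and 0.397 in the controls and 0.714, 0.713 and 0.644 with LPS. Every LPS library had the higher ratio. The difference in log2 ratio was 0.59, and the two-sided exact permutation test gave p = 0.1, the smallest value that 3 against 3 libraries allow. The same p, and an adjusted p of 0.1 over the 5 ratios computed, applied to each ratio given here. Of the 5 other tetrahydrobiopterin genes that were tested, Qdpr, which recycles the cofactor, rose by 0.24 (standard error 0.05, edgeR adjusted p = 0.00365), a call lost with total-count scaling at 0.14 (adjusted p = 0.0599), and 1 gene fell. Pts and Spr, the enzymes that follow Gch1, had log2FC of -0.11 and -0.17 and did not pass.

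Of the arginine recycling members, Ass1 passed the test and Asl did not. Ass1 (ENSMUSG00000076441), the rate-limiting enzyme of the citrulline to arginine route, lies on chromosome 2 from 31470207 to 31520672. It was at 88.3, 83.8 and 96.8 CPM in the control libraries and at 149, 130 and 140 CPM with LPS. The groups were clearly apart. The log2FC was 0.64 (standard error 0.06, edgeR adjusted p = 1.2e-06), a 1.56-fold rise. With control replicate 1, which held 6 hepatocyte counts, as the only control, it was 0.66. The deposited Ass1 pseudogene, Ass-ps1, had 1 count in all.

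Asl (ENSMUSG00000025533), the next enzyme of that route, lies on chromosome 5 from 130011258 to 130029247. It was at 60.1, 58.1 and 62.4 CPM in the control libraries and at 65, 63.1 and 63.7 CPM with LPS. The LPS libraries lay only just above the controls, and the log2FC of 0.09 (standard error 0.05, edgeR adjusted p = 0.229) did not pass the test and turned to -0.012 with total-count scaling. For each of the 7 tested members, Asl included, the lowest LPS library lay above the highest control, which held for 23.7% of all genes tested. Nos2, which passed the filter through its LPS libraries alone, could only count as higher. The ratio of Ass1 to Asl per length was 2.94, 2.89 and 3.1 in the controls and 4.59, 4.11 and 4.39 with LPS, a difference of 0.55 on the log2 scale (exact permutation p = 0.1).

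**Figure D2:**
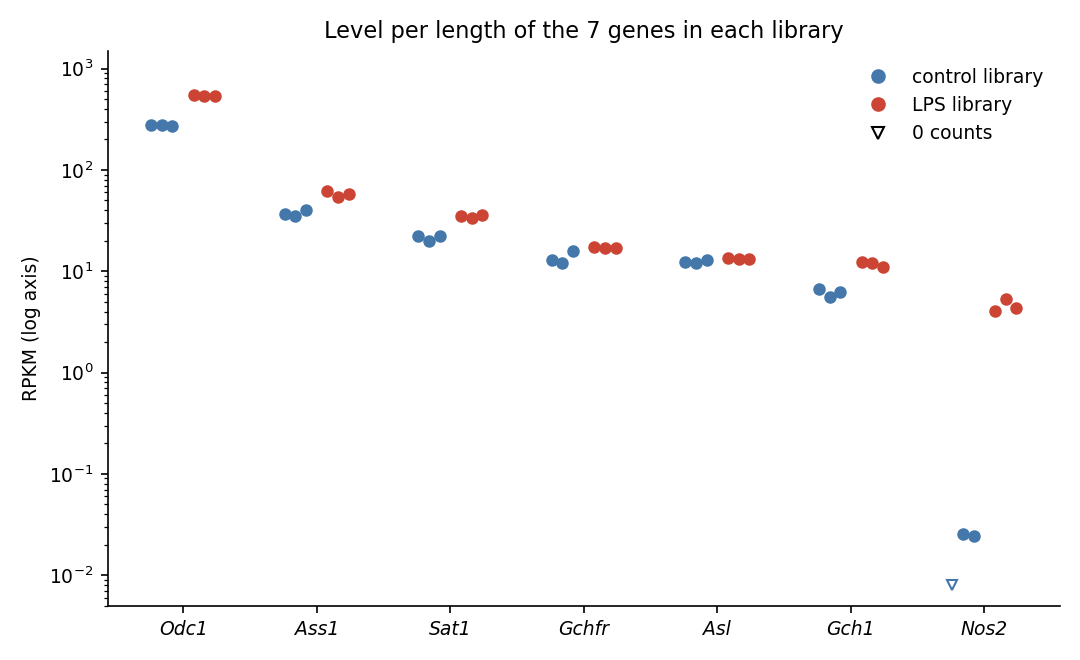
Level per length (RPKM, log axis) of the 7 genes in each of 3 control and 3 LPS libraries, 1 point per library, with open triangles for libraries at 0 counts. Odc1 is highest at 276 RPKM in controls and 540 with LPS, and Nos2 moves from near 0 to 4.57 RPKM.

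The polyamine genes held the member with the highest level per length. Odc1 (ENSMUSG00000011179), the first and rate-limiting enzyme of polyamine synthesis, lies on chromosome 12 from 17544794 to 17551505. It was at 944, 951 and 920 CPM in the control libraries and at 1883, 1827 and 1810 CPM with LPS. The libraries of a group varied by 1.69% (control) and 2.09% (LPS), and the groups were far apart. The log2FC was 0.97 (standard error 0.03, edgeR adjusted p = 2.2e-12), a 1.96-fold rise. By RPKM, Odc1 ranked 153 of 12296 tested genes in the controls and 72 with LPS. The small nucleolar RNA gene Gm22748 inside Odc1 had at most 8 counts.

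Sat1 (ENSMUSG00000025283), the acetyltransferase that opens polyamine breakdown, lies on the X chromosome from 155213132 to 155216449. It was at 61.4, 54.9 and 61.3 CPM in the control libraries and at 98.2, 93.4 and 100.2 CPM with LPS. The groups did not overlap. Its log2FC was 0.72 (standard error 0.06, edgeR adjusted p = 9.9e-08), a 1.64-fold rise. The ratio of Odc1 to Sat1 per length was 12.5, 14.1 and 12.2 in the controls and 15.6, 15.9 and 14.7 with LPS, a difference of 0.25 on the log2 scale (exact permutation p = 0.1).

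Odc1 protein is marked for degradation by antizyme. The antizyme gene Oaz1 had a log2FC of 0.04 (standard error 0.06, edgeR adjusted p = 0.65) and did not pass the test. The ratio of Odc1 to Oaz1 per length was 1.53, 1.87 and 1.71 in the controls and 3.33, 3.32 and 3.06 with LPS, the widest of the 4 ratios between well-counted genes, at 0.93 on the log2 scale (exact permutation p = 0.1). Azin1, the antizyme inhibitor, fell by 0.28 (standard error 0.04, edgeR adjusted p = 5.9e-05).

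**Figure D3:**
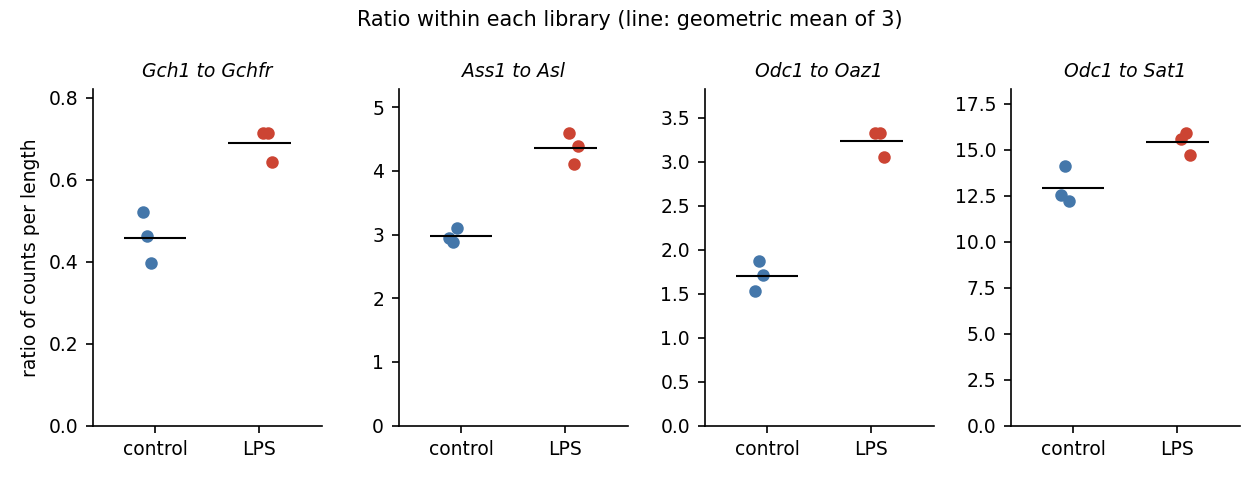
Ratio of counts per length between paired genes within each library, 1 point per library and a line at the geometric mean of 3, for Gch1 to Gchfr, Ass1 to Asl, Odc1 to Oaz1 and Odc1 to Sat1. In each pair the 3 LPS libraries lie above the 3 controls, most clearly for Odc1 to Oaz1, from 1.53 to 1.87 in controls and from 3.06 to 3.33 with LPS.

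Per length, the members kept the same order at the top in both groups. In the controls it ran Odc1 (276 ± 4.65 RPKM), Ass1 (37.1 ± 2.74), Sat1 (21.3 ± 1.34), Gchfr (13.5 ± 1.99), Asl (12.5 ± 0.445) and Gch1 (6.18 ± 0.588), with Nos2 near 0. Gchfr and Asl overlapped between libraries, and the other neighbours were apart. With LPS it ran Odc1 (540 ± 11.3 RPKM), Ass1 (57.8 ± 4.04), Sat1 (35.1 ± 1.25), Gchfr (17 ± 0.251), Asl (13.2 ± 0.196), Gch1 (11.8 ± 0.773) and Nos2 (4.57 ± 0.656), and no neighbours overlapped between libraries.

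In the wider pathway, 64 further genes were listed by role, of which 47 were tested, 6 rose, 8 fell and 33 did not pass. Over all 12296 genes tested, 18.7% were higher with LPS and 15.7% were lower at the same adjusted p. Counts for single lists, above and below, stand beside these shares and are too small to be a result about a list. The median log2FC of the 47 wider genes was -0.03, beside 0.00356 over all genes tested. With total-count scaling, 4 rose and 16 fell. The only DEG among them was Slc7a2 (ENSMUSG00000031596), which encodes the inducible cationic amino acid transporter CAT2, on chromosome 8 from 40862396 to 40922308. Its reads numbered 18, 16 and 17 in the controls, against 84, 95 and 70 with LPS. Its log2FC was 2.41 (standard error 0.24, edgeR adjusted p = 1.8e-06), and no LPS library came near the controls.

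Of 8 genes of arginine and ornithine transport, 6 were tested, 3 rose and 1 fell. Besides Slc7a2, the constitutive arginine transporter Slc7a1 rose by 0.20 (standard error 0.04, edgeR adjusted p = 8.6e-04), from 408 ± 7.89 to 469 ± 12.4 CPM (SD, n = 3), and Slc3a2, the heavy chain shared by several amino acid transporters, rose by 0.48 (standard error 0.04, edgeR adjusted p = 3.4e-07). The mitochondrial ornithine carrier Slc25a15 fell by 0.31 (edgeR adjusted p = 0.0147), a call lost without LPS replicate 1 at -0.24. Per length, Slc7a1 stayed above Slc7a2 in both groups, at 40.7 ± 1.07 RPKM with LPS against 0.561 ± 0.0859 RPKM for Slc7a2 (SD, n = 3).

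**Figure D4:**
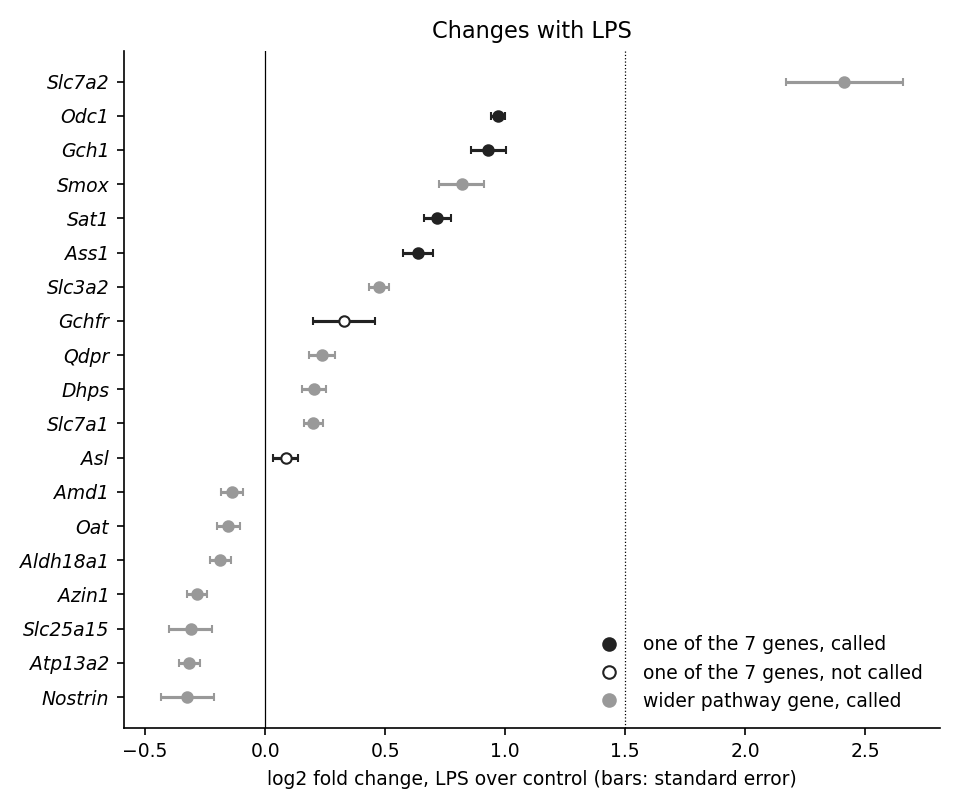
Log2 fold change of LPS over control from edgeR with its standard error, for 6 of the members (black, open where the test was not passed) and 13 wider pathway genes that passed (grey), with a dotted line at the DEG threshold of 1.5. Nos2, whose control libraries were at or under 3 counts, is left out of the plot, and Slc7a2 at 2.41 is the only gene drawn beyond the threshold.

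In the list of other genes of arginine, ornithine and proline metabolism, 10 of 11 were tested, 0 rose and 2 fell. Oat, which leads from ornithine towards proline, fell by 0.15 (edgeR adjusted p = 0.0201, not passed without control replicate 3 at -0.15 or without LPS replicate 2 at -0.12), and Aldh18a1, which makes ornithine and proline precursors, fell by 0.19 (edgeR adjusted p = 0.00371). In polyamine synthesis and its control, 7 of 8 were tested, 0 rose and 2 fell, Azin1 and Amd1. Over all genes tested, 18.7% were higher with LPS and 15.7% were lower. Amd1, which supplies the aminopropyl donor, fell by 0.14 (edgeR adjusted p = 0.0308), not passed without control replicate 3 at -0.12, without LPS replicate 2 at -0.12, without LPS replicate 3 at -0.13 or with DESeq2 (-0.14, adjusted p = 0.0681). Reads of Amd1 and its near-identical copy Amd2 could be divided by the counting. The spermidine and spermine synthase genes Srm and Sms had log2FC of -0.05 and 0.06 and did not pass.

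Of the 3 polyamine breakdown genes, Smox, the spermine oxidase, rose from 14.4 ± 0.196 to 25.4 ± 2.51 CPM (SD, n = 3), a log2FC of 0.82 (standard error 0.09, edgeR adjusted p = 7.6e-06), and Sat2 and Paox did not pass. Dhps, which uses spermidine to modify the translation factor encoded by Eif5a, rose by 0.20 (edgeR adjusted p = 0.00441), a call lost with total-count scaling at 0.11 (adjusted p = 0.0994), and the lysosomal polyamine exporter Atp13a2 fell by 0.32 (edgeR adjusted p = 6.6e-05). Genes through which NO is sensed were hardly detected. The soluble guanylate cyclase genes Gucy1a2 and Gucy1b1 and the kinase gene Prkg1 had 0 counts in all 6 libraries, and Gucy1a1 had 1 count in each of 2 libraries. Adh5, which removes S-nitrosoglutathione, was well counted and had a log2FC of -0.08 that did not pass. Of the methylarginine hydrolases, which clear natural inhibitors of NO synthase, Ddah1 had a single count in all and Ddah2 had between 7 and 25 counts with a log2FC of -0.40 (standard error 0.38).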

How the data were processed

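RNA of 6 libraries of N9 microglia, 3 control and 3 with LPS by their labels, was sequenced and processed by Novogene for the authors. The authors deposited whole-number read counts per gene without normalization, and the submitters' processing notes name featureCounts 1.5.0-p3 and the build mm10. The aligner, the annotation release and the use of strand are not given in the sources used here. A table of the authors' own DESeq2 comparison (fold changes, p-values, 18 further columns of values per sample) was not used. Gene lengths are those deposited, and gene positions of all 9 members equal those of GENCODE M21.

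Counts were tested with edgeR 4.0.16 under R 4.3.3 (filterByExpr, TMM, quasi-likelihood test, prior count 0.125, no replicate term), with Benjamini-Hochberg adjustment over 12296 genes. The standard error is the log2 fold change divided by the square root of F. Where all libraries of a group were at or under 3 counts, a fold change is a bound against 3 counts per library. Ratios per length added 0.5 counts to each gene and used exact permutation tests over libraries (scipy 1.17.1, Python 3.11.15). The fit was tested on simulated counts of 54532 genes and recovered 100 of 100 genes changed by 1 on the log2 scale, with 5 false calls among 12315 genes tested. The simulation gave all genes the same dispersion and changed only well-counted genes, by 1 or more on the log2 scale. It therefore does not cover genes with few counts, such as Nos2 in the controls, genes with a wider spread, or smaller changes. Reads were not collapsed by molecular identifiers, so that intervals on counts allow for counting error only.

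The members and the gene lists were chosen with earlier results of these data known. Of the 9 members, 2 are not reported here, nor are 2 genes of the wider lists, although the counts of listed genes include these. Named genes are the members, genes of the pathway and marker lists, genes overlapping a member or named as its pseudogene, and the 3 genes nearest to each member that is a DEG, by log2 CPM with a prior count of 2. Alternatives were DESeq2 1.42.0, RLE and total-count scaling, no filter, a filter at a mean of 10 counts, a robust fit, glmTreat, a prior count of 2, a replicate block, and each library left out. Control replicate 1 as the only control was added after seeing the data.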

Additional observations from a re-analysis of the deposited data

How the results depend on the processing

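The 5 members that rose did so in every one of the 15 alternatives run for each of them, and the number of DEG among the members was 1 throughout. Their adjusted p-values never exceeded 7.7e-05. Leaving out each library in turn gave log2 fold changes from 0.85 to 0.98 for Gch1, 0.58 to 0.69 for Ass1, 0.95 to 0.98 for Odc1 and 0.66 to 0.75 for Sat1. Gchfr ran from 0.24 to 0.45 and passed the test only without control replicate 3. Asl turned to -0.012 with total-count scaling, which moved the median of all tested genes from 0.00356 to -0.0947. The number of wider pathway genes lower with LPS, 8, became 16 with that scaling, 4 with control replicate 1 as the only control (chosen after seeing the data; the lone library is assumed to vary like the others), and from 5 to 9 with each library left out. It was 5 without control replicate 3. Of 210 alternative values for the 14 wider genes called, 21 lost the call, in 7 genes, and 0 changed sign. All 7 (Nostrin, Qdpr, Slc25a15, Oat, Aldh18a1, Amd1 and Dhps) lost it with control replicate 1 as the only control, where they were at -0.085, 0.12, -0.35, -0.16, -0.18, -0.11 and 0.16 in that order, all in the direction given for all libraries.

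The labels do not say whether the replicate numbers pair the libraries. The deviations of same-numbered libraries from their group means correlated at 0.136, 0.0588 and -0.00415 over 12296 genes. Those of libraries with different numbers correlated at -0.144 to 0.0912. Deviations from a mean of 3 libraries depend on each other, so these values cannot decide whether the libraries are paired. With a replicate block, 5 members rose, and 8 wider genes rose and 10 fell; of the control libraries, only replicate 1 correlated best with the LPS library of its own number. Depth limits the control level of Nos2, which rests on 0 to 2 counts a library.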
